A study of Schmidtea mediterranea with 64 samples.

Results

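The comparison described here was that of *mll1/2*(RNAi) with *unc22*(RNAi) after 12 days, in X1 cells of the planarian flatworm *Schmidtea mediterranea*. It used 8 of the 64 libraries of the series, 4 per group. Its members were the 12525 transcripts, of 21868 listed for *mll1/2* X1 cells, whose mean level over the 16 libraries of that table reached 1 RPKM (reads per kilobase of transcript and per mega reads). The other 9343 were not tested, and 117 of these were at 0 in all 16 libraries.

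The animals of the *mll1/2*(RNAi) group ate liver paste mixed with bacteria that made double-stranded RNA of *mll1/2*, and those of the *unc22*(RNAi) group ate the same food with double-stranded RNA of *unc22*, a control that targets no planarian gene. Both groups received this food for 12 days, and the same pair of groups was also taken at day 9. X1 cells were sorted by Hoechst staining and flow cytometry, and polyA RNA libraries were made from 100 ng of sorted RNA with an Illumina TruSeq kit. The labels number the libraries of a group 1 to 4 but do not say whether these came from separate animals or cultures, so p-values measure only the spread between these libraries, which may be technical.

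X1 is the dividing stem cell fraction of the planarian, and planarian stem cells, the neoblasts, are the source of all new differentiated cells. MLL1/2 and Set1 are catalytic subunits of COMPASS-family complexes, which methylate lysine 4 of histone H3. The trimethylated form of this residue, H3K4me3, marks the promoters of active genes. In a sorted fraction a lower transcript level can reflect fewer cells of a type or less RNA per cell, which cannot be told apart here. The files do not pair the transcript IDs with gene names, and neither the level of *mll1/2* itself nor markers of X1 or of other cells were checked here.

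The *unc22*(RNAi) libraries of day 12 were not alike. Across transcripts, which are not independent replicates, libraries 2 to 4 had Pearson's r of 0.982 to 0.985 among themselves, while library 1 had 0.930 to 0.957 with them and 0.953 to 0.965 with the 4 *mll1/2*(RNAi) libraries. Libraries 2 to 4 had 0.926 to 0.966 with the *mll1/2*(RNAi) libraries, a range that includes that of library 1. The *mll1/2*(RNAi) libraries had 0.978 to 0.989 among themselves. Libraries 2 to 4 also stood apart from the other 13 of the table in scale. Their library size implied by the RPKM steps was 0.704 to 0.763 of the reads listed, against 0.852 to 1.02 in the other 13, and their 100 most abundant transcripts took 41.0% to 42.3% of the reads, against 35.4% to 38.4%. Total reads were 11.69 to 13.03 M (mega reads) in *mll1/2*(RNAi) libraries and 11.61 to 14.35 M in *unc22*(RNAi) libraries.

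With all 4 controls, limma called 3555 transcripts at an adjusted p below 0.05, or 28.4% of those tested. Of these 1659 (13.2%) were higher and 1896 (15.1%) were lower after *mll1/2*(RNAi). Rises of at least 2-fold numbered 714 (5.70%) and falls of at least 2-fold 516 (4.12%). The median log2 fold change over all 12525 was -0.13. Once each library was shifted so that its median deviation from the transcript means was 0, the median was -0.03 and the calls were 1912 higher and 1435 lower, so the larger direction depended on the scaling. The *mll1/2*(RNAi) and *unc22*(RNAi) libraries did not overlap in 1235 transcripts that were higher (9.86%) and 1704 that were lower (13.6%). Of these 1092 (8.72%) and 1335 (10.7%) were also called.

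To see which changes held against every control, the *mll1/2*(RNAi) mean was set against each *unc22*(RNAi) library alone. Most rises were large against libraries 2 to 4 and small against library 1. Among the 1659 called rises the median difference on the log2(RPKM + 0.5) scale was 0.42 against library 1, 0.90 against library 2, 1.28 against library 3 and 1.20 against library 4. Library 1 was the control nearest to the knockdown for 1268 of the rises (76.4%). Only 79 rises (4.76%) were at least 2-fold against it, against 683, 1152 and 1108 for libraries 2, 3 and 4. Among the 1896 called falls the median differences were -0.45, -0.70, -0.84 and -0.78 against libraries 1 to 4. Library 1 was nearest for 1185 falls (62.5%), and 412 falls (21.7%) were at least 2-fold against it, beside 568, 707 and 622 for the other libraries. Over all transcripts tested the median differences were 0.03, -0.13, -0.24 and -0.19.

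**Figure D1:**
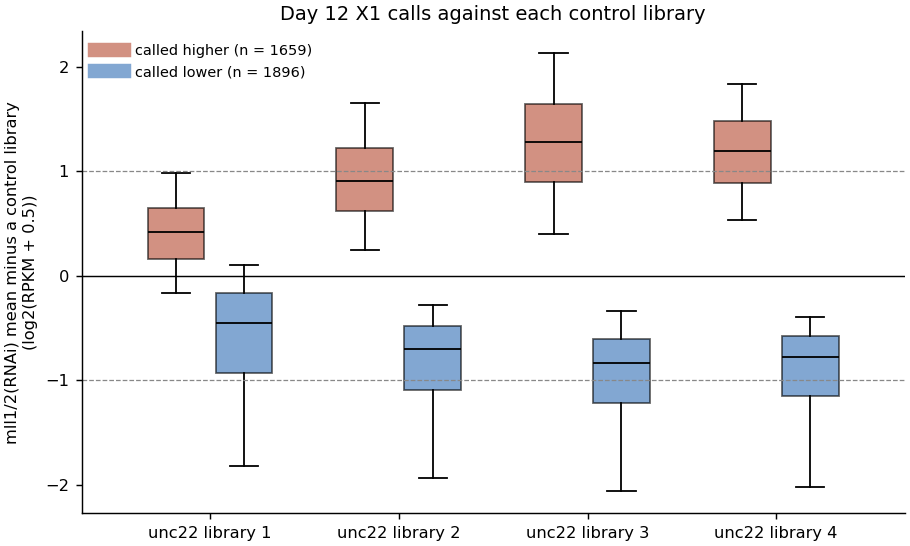
The vertical axis gives the *mll1/2*(RNAi) mean minus a single *unc22*(RNAi) library on the log2(RPKM + 0.5) scale, for the 1659 transcripts called higher and the 1896 called lower with all 4 controls. Boxes span the quartiles with the median as a line, whiskers run from the 5th to the 95th percentile, and dashed lines mark 2-fold. The median rise is 0.42 against library 1 and 0.90 to 1.28 against the others, and the median fall is -0.45 against library 1 and -0.70 to -0.84 against the others.

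When a single control library was used in the test, with its spread assumed to equal that of the other groups, 817 transcripts were higher (6.52%) and 500 lower (3.99%) against library 1. These included 156 of the 1659 rises (9.40%) and 423 of the 1896 falls (22.3%) called with all 4 controls. Against library 4 the same counts were 1376 rises (82.9%) and 1337 falls (70.5%), out of 1693 higher (13.5%) and 1890 lower (15.1%). Libraries 2 and 3 alone gave 1089 higher (8.69%) and 1458 lower (11.6%), and 1907 higher (15.2%) and 3157 lower (25.2%). Without library 1, in turn, there were 2280 higher and 3754 lower. Transcripts called in the same direction against each of the 4 controls numbered 64 among the rises (3.86%) and 284 among the falls (15.0%).

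**Figure D2:**
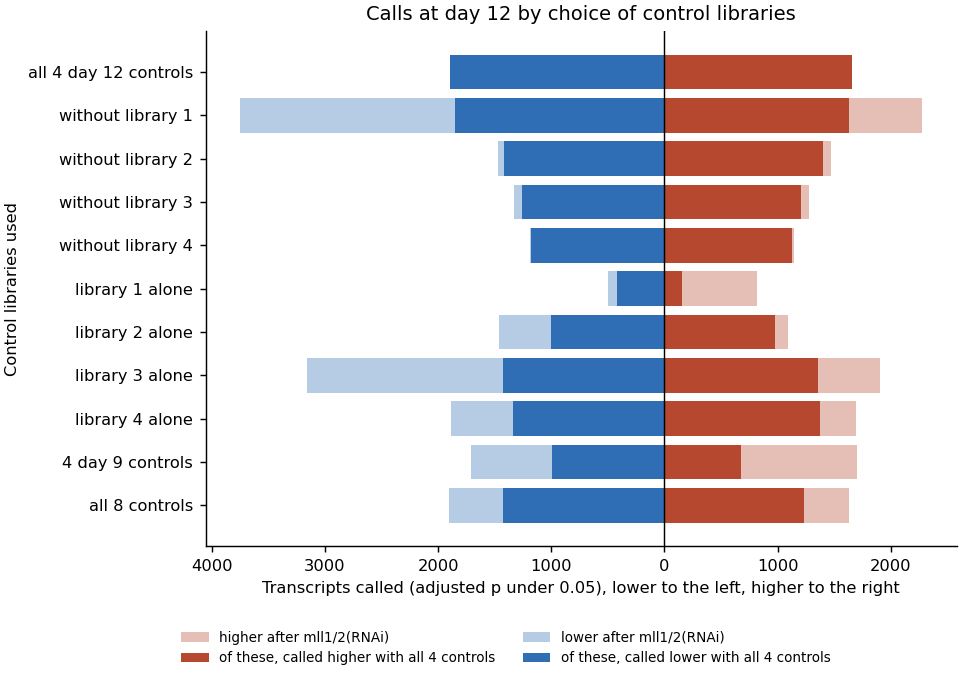
Bars count transcripts called at an adjusted p below 0.05, lower to the left and higher to the right, for each choice of control libraries named on the vertical axis. The dark part of a bar holds transcripts also called in that direction with all 4 day 12 controls, for example 156 of the 817 rises and 423 of the 500 falls against library 1.

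A stricter group was then formed from called transcripts whose groups did not overlap and whose *mll1/2*(RNAi) mean lay at least 2-fold beyond the nearest control library. It held 236 falls (1.88% of those tested) and 24 rises (0.192%), so 12.4% of the falls and 1.45% of the rises met it. Among falls the value nearest to the limit was 1.003 on the log2 scale inside and 0.9994 outside. Without library 1 the same rule gave 562 rises and 405 falls, so the low number of rises rested on that library. All values of these groups at day 12 are a description, since day 12 values chose them.

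The 236 falls had a median log2 fold change of -1.71 (quartiles -2.15 and -1.48). Their median level was 1.48 RPKM after *mll1/2*(RNAi) and 6.93 RPKM after *unc22*(RNAi). Falls of at least 4-fold numbered 78 and falls of at least 8-fold 8, and 94 of the 236 averaged under 1 RPKM after *mll1/2*(RNAi). They were not only rare transcripts, since 87 averaged at least 10 RPKM in *unc22*(RNAi) cells. Of the 236, 1 had 0 reads in all 4 *mll1/2*(RNAi) libraries and 7 had at most 3 reads over the 4, and for these the fitted fold change depends on the pseudocount. Their median length was 860 bases, against 1203 bases over all transcripts tested.

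The fall with the widest gap between groups was that of SMED30022885, 1530 bases long. It was at 0.123, 0.237, 0.163 and 0.217 RPKM in *mll1/2*(RNAi) libraries 1 to 4, which is 2, 4, 3 and 4 reads, against 7.35, 5.22, 5.69 and 7.59 RPKM in *unc22*(RNAi) libraries 1 to 4, which is 130, 85, 88 and 116 reads. Every knockdown library was thus nearly empty of this transcript, and library 1 was the second highest of the controls. The log2 fold change was -3.33 (SE 0.22, limma adjusted p = 2.81e-08). From the reads alone the level in *unc22*(RNAi) cells was 34.9 times that in *mll1/2*(RNAi) cells (95% interval 20.2 to 66.0, counting error only). At day 9 it averaged 0.340 ± 0.315 RPKM after *mll1/2*(RNAi) and 5.67 ± 0.361 RPKM after *unc22*(RNAi) (SD, n = 4 each), a log2 fold change of -2.95 (limma adjusted p = 5.55e-07). It was also called lower in X1 cells after *set1*(RNAi) at day 9, with a log2 fold change of -0.89 (limma adjusted p = 0.000896). In whole worms of day 12 it was under 1 RPKM in all 8 libraries, 0.202 to 0.273 RPKM after *mll1/2*(RNAi) and 0.0939 to 0.325 RPKM after *unc22*(RNAi), and it was not tested there.

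The second was SMED30019139, 666 bases long. Its level was 0.283, 0.544, 0.748 and 0.996 RPKM in *mll1/2*(RNAi) libraries 1 to 4 (2, 4, 6 and 8 reads), against 12.1, 13.8, 12.9 and 10.8 RPKM in *unc22*(RNAi) libraries 1 to 4 (93, 98, 87 and 72 reads). The groups were far apart, and library 1 lay within the range of the other controls. The log2 fold change was -3.53 (SE 0.23, limma adjusted p = 2.81e-08), and it was -2.64 at day 9 (limma adjusted p = 2.31e-06) and -1.62 after *set1*(RNAi) at day 9 (limma adjusted p = 5.35e-05). Unlike the first, this transcript was well expressed in whole worms, at 11.8 to 14.2 RPKM after *mll1/2*(RNAi) and 9.64 to 16.6 RPKM after *unc22*(RNAi) at day 12. The difference there was 0.09 on the log2 scale (limma adjusted p = 0.764).

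The falls could be followed in 3 other comparisons, each against its own *unc22*(RNAi) group. The whole-worm and *set1* libraries had no part in choosing the falls. The day 9 libraries had a part through the filter of 1 RPKM over the 16 libraries and the shared spread, but not through their difference between groups. The 94 falls under 1 RPKM after *mll1/2*(RNAi) at day 12 passed this filter only through higher levels in the other groups. In X1 cells at day 9, from the same table and with a shared estimate of spread, 206 of the 236 falls (87.3%) were called lower and none higher, where 3.35% of all transcripts were called lower and 0.663% higher. All but 1 of the 236 had a negative log2 fold change at day 9, where 5372 of all 12525 transcripts had. The median was -1.25 (quartiles -1.62 and -0.94) against 0.04 over all transcripts. Leaving out each day 9 library in turn gave 176 to 192 of the 236. Seen from the earlier day, 381 of the 420 falls called at day 9 (90.7%) were called lower at day 12, which is 20.1% of the day 12 falls. None of the 420 was called higher. Rises of day 9 were seen again less often, since 24 of the 83 (28.9%) were called higher at day 12 and 3 were called lower. Of all transcripts 13.2% were called higher and 15.1% lower at day 12. Of the 284 falls called against each control library alone, 226 (79.6%) were called lower at day 9.

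The median level of the 236 in *mll1/2*(RNAi) cells was 1.48 RPKM at day 12 and 2.24 RPKM at day 9, while in *unc22*(RNAi) cells it was 6.93 RPKM at day 12 and 6.83 RPKM at day 9. The log2 fold change was more negative at day 12 in 215 of the 236, though the choice by day 12 values favours this. The difference between days passed the test of the interaction in 30 of the 236, all further down at day 12 (6.29% of all transcripts, in either direction). With the day 9 controls in place of those of day 12, 234 of the 236 (99.2%) were called lower (13.7% of all), and in 229 every *mll1/2*(RNAi) library of day 12 was below all 8 *unc22*(RNAi) libraries of both days (9.41% of all). These counts use the *mll1/2*(RNAi) values that chose the 236, and the absence of overlap with 4 of the 8 controls was already required, so they describe the group and are not read against the share of all transcripts.

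In X1 cells after *set1*(RNAi) at day 9, 125 of the 234 falls tested there (53.4%) were called lower and 12 higher, where 23.8% and 16.8% of all transcripts tested in both tables were called lower and higher. The median log2 fold change of the falls was -0.48, against -0.02 over all, and leaving out each *set1* library or its controls gave 110 to 129. Falls called lower both at day 9 of *mll1/2*(RNAi) and after *set1*(RNAi) numbered 113, and 91 were called lower at day 9 of *mll1/2*(RNAi) but not after *set1*(RNAi). As 206 of the 236 falls were called lower at day 9, a large joint count follows from the separate counts. The joint count over all transcripts was not made, so nothing is read from these 2 counts about a shared or separate response. Whether the effects of *set1*(RNAi) and *mll1/2*(RNAi) on these transcripts differ was not tested, because they stand in separate tables.

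In whole worms at day 12, 35 of the 182 falls tested there (19.2%) were called lower and 6 higher, where 3.48% and 1.57% of all transcripts were called lower and higher. The median log2 fold change was -0.17, against 0.00 over all. The count was 23 without whole-worm *mll1/2*(RNAi) replicate 3 and also 23 without replicate 4, when only 0.823% and 1.10% of all transcripts were called lower. Of the 181 falls tested in all 3 of the other comparisons, 22 (12.2%) were called lower in all 3 and 9 (4.97%) in none, where 0.295% and 72.3% of the 11192 transcripts tested in all 3 were.

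**Figure D3:**
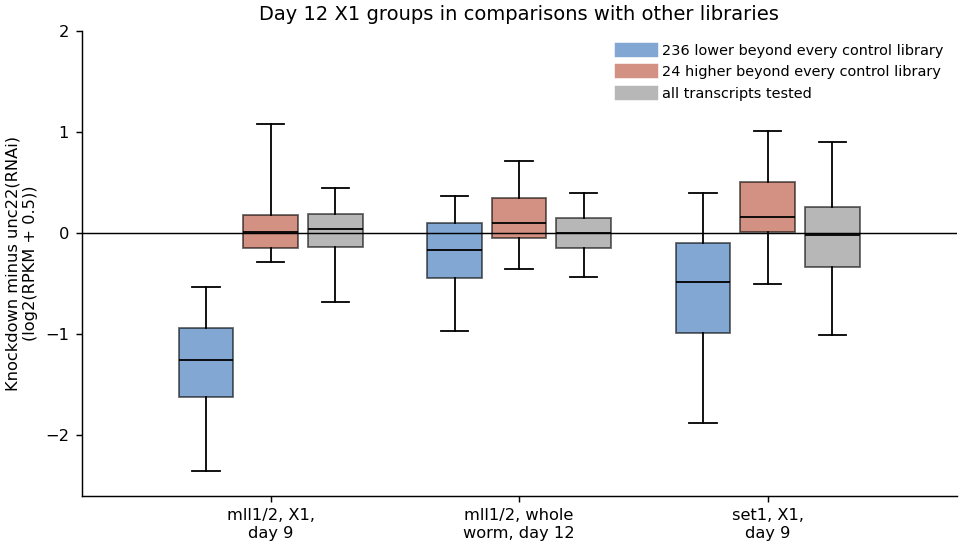
The vertical axis gives the log2(RPKM + 0.5) difference between a knockdown and its own *unc22*(RNAi) group for *mll1/2*(RNAi) in X1 cells at day 9 and whole worms at day 12 and for *set1*(RNAi) in X1 cells at day 9, over the 236 falls, the 24 rises and all transcripts tested. Boxes span the quartiles with the median as a line and whiskers run from the 5th to the 95th percentile. The falls have medians of -1.25, -0.17 and -0.48, and the rises 0.01, 0.10 and 0.16.

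Planarian stem cells make up only a part of the whole animal, so the falls were also divided by how their level in X1 cells compared with that in whole worms, both from *unc22*(RNAi) at day 9. The 2 tables may have been normalised separately, so this ratio orders transcripts and is not a measure of true enrichment. The level in X1 cells was at least 2-fold above that in whole worms for 70 of the falls, within 2-fold for 65 and at least 2-fold below for 83, and 18 were not listed for whole worms. At day 9, 64 of the 70, 56 of the 65 and 73 of the 83 were called lower, where 3.05%, 2.59% and 4.19% of all transcripts of these classes were. The X1 libraries that set the classes were also the controls of this day 9 comparison, so class and day 9 call were not independent. In whole worms at day 12, 17 of the 40 tested (42.5%) of those above were called lower, against 8 of 59 (13.6%) and 10 of 83 (12.0%) in the other classes. Over all transcripts of these classes 3.72%, 2.64% and 4.14% were called lower. After *set1*(RNAi) the counts were 45 of 69 (65.2%), 35 of 65 (53.8%) and 38 of 82 (46.3%), beside 31.0%, 25.8% and 14.7% over all transcripts of the same classes. The differences between these classes were not tested.

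The 24 rises were for the most part not seen at day 9. Their median level was 5.92 RPKM after *mll1/2*(RNAi) and 1.53 RPKM after *unc22*(RNAi) at day 12, a median log2 fold change of 1.48. At day 9 it was 2.98 RPKM after *mll1/2*(RNAi) and 2.84 RPKM after *unc22*(RNAi), and the median log2 fold change was 0.01. Of the 24, 3 were called higher at day 9 (12.5%) where 0.663% of all transcripts were, and 12 had a positive and 12 a negative log2 fold change. Leaving out each day 9 library in turn gave 2 or 3 of the 24 called higher at day 9. In 8 of the 24 the *unc22*(RNAi) mean of day 12 was under 1 RPKM, and these passed the filter only through higher levels in the other groups. The next values use the day 12 libraries that chose the 24, so they are a description, and nothing is read from them against the share of all transcripts. The interaction between days passed in 20, all further up at day 12 (6.29% of all transcripts, in either direction). In 8 of the 24 the *unc22*(RNAi) level itself was called lower at day 12 than at day 9 (7.90% of all), and in none was it called higher (14.9% of all). Against the day 9 controls 19 (79.2%) were called higher (13.6% of all), and in 19 every *mll1/2*(RNAi) library of day 12 was above all 8 controls (7.06% of all). In whole worms at day 12, 5 of the 24 (20.8%) were called higher and 1 (4.17%) lower, where 1.57% and 3.48% of all transcripts were. The 5 were 3 without whole-worm *mll1/2*(RNAi) replicate 3 or 4 or *unc22*(RNAi) replicate 2 or 3. After *set1*(RNAi) 3 of 23 were called higher and 3 lower, in each case a share (13%) below the 16.8% and 23.8% of all transcripts. The 3 rises were 5 without the first-listed of the *unc22*(RNAi) libraries of that day. None of the 24 was at least 2-fold higher in X1 cells than in whole worms, 10 were within 2-fold and 14 at least 2-fold below. Of all 12525 transcripts these classes held 3940, 4317 and 4007. Transcript length moved with this division and was not taken into account in these counts.

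The rise with the widest gap was that of SMED30021435, 377 bases long. It had 2.00, 2.65, 2.20 and 4.40 RPKM in *mll1/2*(RNAi) libraries 1 to 4, or 8, 11, 10 and 20 reads. The *unc22*(RNAi) libraries held 1 read in all, in library 3, where it was at 0.263 RPKM, and the others were at 0. The ratio of the reads was 45.3 (95% interval 7.76 to 1826, counting error only), and the log2 fold change on the log2(RPKM + 0.5) scale was 2.52 (SE 0.29, limma adjusted p = 9.93e-06). Its mean was 2.81 RPKM after *mll1/2*(RNAi) and 0.0656 RPKM after *unc22*(RNAi) at day 12, and 0.954 and 0.213 RPKM at day 9. It thus passed the filter of 1 RPKM only through the day 12 knockdown libraries, whose values also chose it. This was 1 of the 3 rises called at day 9, with a log2 fold change of 1.09 (limma adjusted p = 0.0414). At day 9 it was at 1.19, 0.583, 1.12 and 0.919 RPKM after *mll1/2*(RNAi) and at 0, 0, 0.261 and 0.592 RPKM after *unc22*(RNAi), so the groups overlapped. It was also higher in whole worms at day 12, with 3.42, 3.33, 3.08 and 3.76 RPKM after *mll1/2*(RNAi) and 0.330, 0.861, 0.264 and 0.635 RPKM after *unc22*(RNAi), and the groups did not overlap (log2 fold change 1.97, limma adjusted p = 0.00177).

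The next, SMED30025064, 2499 bases long, was at 5.24, 5.04, 5.49 and 5.47 RPKM in *mll1/2*(RNAi) libraries 1 to 4 and at 1.84, 0.977, 1.03 and 0.240 RPKM in *unc22*(RNAi) libraries 1 to 4. The knockdown libraries were close together, and library 1 was the highest of the spread controls. The log2 fold change was 2.05 (SE 0.25, limma adjusted p = 2.30e-05). At day 9 the groups overlapped, with 2.91, 3.03, 3.30 and 3.12 RPKM after *mll1/2*(RNAi) and 3.33, 2.96, 2.01 and 3.01 RPKM after *unc22*(RNAi) (log2 fold change 0.13, limma adjusted p = 0.907). The day 12 *unc22*(RNAi) level of this transcript was itself lower than that of day 9, by a log2 fold change of -1.22 (limma adjusted p = 0.0114), and against the day 9 controls the day 12 rise was 0.82 (limma adjusted p = 0.0248). It was called lower after *set1*(RNAi), with a log2 fold change of -0.88 (limma adjusted p = 0.0347), and in whole worms the log2 fold change was 0.42 (limma adjusted p = 0.105).

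**Figure D4:**
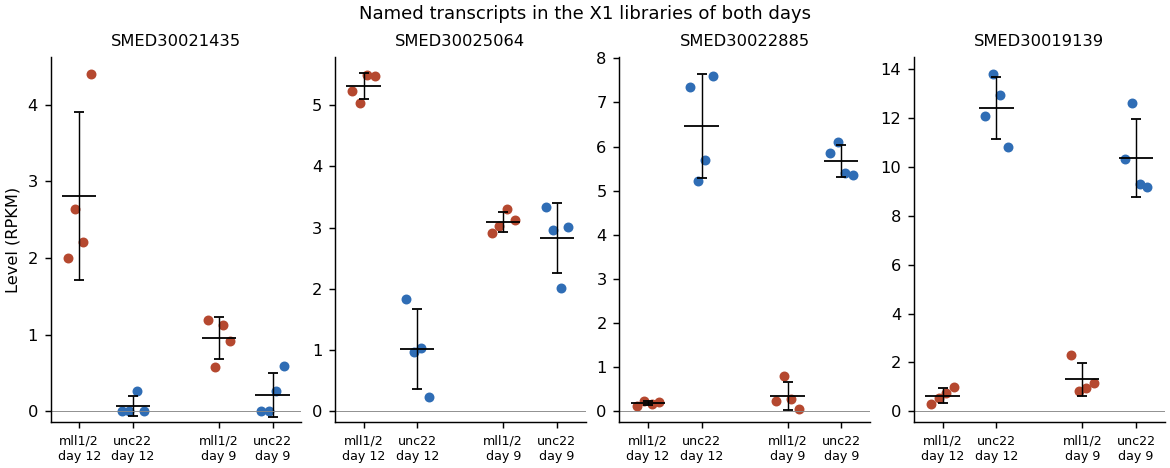
Each panel gives the RPKM of a named transcript in the 16 X1 libraries, with *mll1/2*(RNAi) left of *unc22*(RNAi) at days 12 and 9. Points are libraries 1 to 4 from left to right, the long line is the mean and the bar is 1 SD. In SMED30022885 and SMED30019139 the knockdown is low on both days, while in SMED30025064 the day 12 controls, at 0.240 to 1.84 RPKM, lie below the day 9 controls, at 2.01 to 3.33 RPKM.

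The weaker changes were followed in the same way. Of the 1068 rises whose groups did not overlap but that lay less than 2-fold beyond a control, 19 (1.78%) were called higher at day 9, where 0.663% of all transcripts were, and 589 (55.1%) were called higher against the day 9 controls, where 13.6% of all were. Of the 567 rises whose groups overlapped, these counts were 2 (0.353%) and 69 (12.2%), near those shares. Among the 1099 falls without overlap and less than 2-fold beyond, 157 (14.3%) were called lower at day 9, 679 (61.8%) were called lower against the day 9 controls and 431 of 1093 (39.4%) were called lower after *set1*(RNAi). The shares of all transcripts were 3.35%, 13.7% and 23.8%. The counts against the day 9 controls again use the *mll1/2*(RNAi) values of day 12. Among the 561 falls with overlap the day 9 count was 18 (3.21%), near the 3.35% of all transcripts. Against the day 9 controls 84 of them (15%) were called lower, beside 13.7% of all. After *set1*(RNAi) 190 of 550 (34.5%) were called lower, a share above the 23.8% of all.

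Rises at day 12 were mostly long transcripts. When the transcripts were divided by length into 5 classes of 2505, the longest, from 2160 to 17018 bases, held 1097 of the 1659 rises and 94 of the 1896 falls. In this class 43.8% of the transcripts were called higher and the median log2 fold change was 0.49. In the first 3 classes, up to 1454 bases, 99, 85 and 85 transcripts were called higher and 311, 555 and 600 lower, and the median log2 fold changes were -0.13, -0.23 and -0.27. The fourth class held 293 rises and 336 falls. At day 9 the medians of the 5 classes lay between -0.02 and 0.08. The 236 strict falls numbered 70, 78, 54, 26 and 8 from the shortest to the longest class, and the 24 strict rises 8, 1, 0, 2 and 13.

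This pattern lay in both groups and was unequal among the controls. The median deviation of the longest class from the mean of the 16 libraries, minus that of the third class, was 0.43, 0.35, 0.54 and 0.48 on the log2 scale in *mll1/2*(RNAi) libraries 1 to 4 of day 12, and 0.12, -0.28, -0.67 and -0.56 in *unc22*(RNAi) libraries 1 to 4. In the 8 libraries of day 9 it was -0.03, -0.13, -0.08 and 0.03 after *mll1/2*(RNAi) and 0.02, -0.08, -0.35 and 0.18 after *unc22*(RNAi). The 4 knockdown libraries of day 12 were thus above all others in this measure, and control libraries 3 and 4 were below all others. With the length trend of each library removed, 977 transcripts were called higher (7.80%) and 1446 lower (11.5%). These included 819 of the 1659 rises (49.4%) and 1131 of the 1896 falls (59.7%), and all 236 strict falls and all 24 strict rises. The strict groups were chosen by the same day 12 values, so this last count is a description. What gives rise to the trend with length was not tested.

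**Figure D5:**
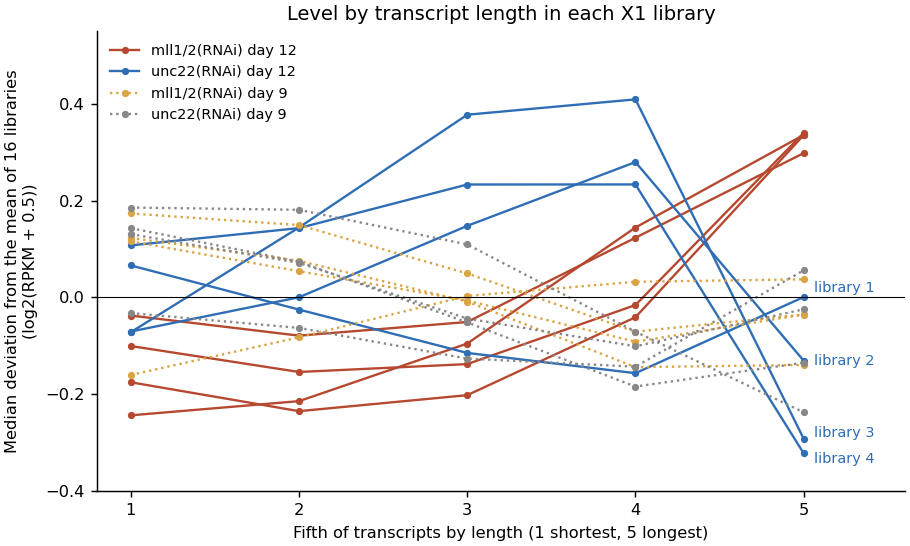
The horizontal axis gives the 5 classes of transcript length, 1 the shortest, and the vertical axis the median deviation of a library from the mean of the 16 libraries on the log2(RPKM + 0.5) scale. Each line is a library. In the longest class the 4 *mll1/2*(RNAi) libraries of day 12 lie at 0.30 to 0.34, and *unc22*(RNAi) libraries 1 to 4 of day 12 at 0.00, -0.13, -0.29 and -0.32.

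The calls also differed with the level in X1 cells relative to whole worms, as defined above. Of the 3940 transcripts at least 2-fold above whole worms, 158 (4.01%) were called higher and 814 (20.7%) lower. Of the 4007 at least 2-fold below, 873 (21.8%) were called higher and 462 (11.5%) lower, and of the 4317 in between 625 (14.5%) and 565 (13.1%). Length moved with this division, and within the longest class the share called higher was 27.2% of 283 above, 44.8% of 862 in between and 46.6% of 1360 below. With the length trend removed, 3.25% of the transcripts above were called higher and 11.9% lower, and 10.7% of those below were called higher and 11.8% lower, so by this measure the shares of falls were close while those of rises were not. Within the 5 length classes, with no trend removed, the share of falls was higher above than below in each, at 14.9%, 24.5%, 29.7%, 17.9% and 6.71% above, against 5.59%, 18.7%, 23.5%, 14.7% and 3.09% below, from the shortest to the longest. The 2 ways of taking length into account thus differed for the falls. Against control library 1 alone, 2.34% of the transcripts above were called higher and 5.03% lower, and 7.21% of those below were called higher and 3.29% lower. The 236 strict falls were spread over this division, with 70 of the 3940 above, 65 of the 4317 in between and 83 of the 4007 below.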

How the data were processed

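The authors deposited RPKM values as a table for each experiment and tissue, in which a column is a library and a line is a transcript ID. The submitters' processing notes name CASAVA 1.8.2, Bowtie and edgeR without saying what each did, and how reads were counted, on which transcript set and with which filters, is not given in the sources used here. Transcripts that share reads with a near-identical copy are therefore uncertain.

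Whole reads and transcript lengths were recovered from the steps in the RPKM values, and 100% of values came out within 0.01 read of a whole number. Depth was 9.50 to 14.35 M reads per library over the 16 libraries. Intervals cover counting error only.

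Transcripts with a mean of at least 1 RPKM were tested as log2(RPKM + 0.5) values. The tool was limma 3.58.1 under R 4.3.3 (lmFit with 1 mean per group over all 16 libraries, eBayes with a trend), two-sided, with Benjamini-Hochberg adjustment over all transcripts tested and a threshold of 0.05. Fold changes on this scale understate the change of low transcripts. Day 9, whole-worm and *set1* X1 comparisons were fitted in the same way within their own tables. The columns of the *set1* X1 table were used by group, without replicate numbers, and *set1* whole worms were not used. Python 3.11.15 with pandas 2.3.3, numpy 2.4.6 and scipy 1.17.1 was used for counts and intervals. The fit was checked on simulated reads with known changes, which held no unlike control library and no trend with length. The rules for overlap and for the strict groups and the recovery of reads were not checked on simulated data.

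The named transcripts were the 2 rises and 2 falls with the widest gap between the nearest *mll1/2*(RNAi) and *unc22*(RNAi) library, among those called, changed at least 2-fold and without overlap. The members, tests and classes were chosen with earlier results of these data known. Alternatives were other pseudocounts, filters, scalings, controls, a voom fit on the recovered reads, removal of the length trend, library weights, a replicate block and leaving out each library.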

Additional observations from a re-analysis of the deposited data

Results flagged for a closer look

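Of 32 groups of 4 libraries checked for a value far from the rest, 2 stood out, and chance flags about 1 in 20 such groups. In SMED30021435 the highest *unc22*(RNAi) value of day 12 was 0.263 RPKM, a single read, where the other 3 libraries were at 0. The number of reads in *unc22*(RNAi) library 4 of day 9 was 13.23 M, above the other 3 libraries of that group.

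The effect of *mll1/2*(RNAi) differed between days in both named rises by the interaction test. It was larger at day 12 than at day 9 by 1.44 on the log2 scale in SMED30021435 (limma adjusted p = 0.046). This call was lost in 14 of the 16 fits that left out a library, with values of 1.21 to 1.59 and adjusted p up to 0.107. In SMED30025064 the difference was 1.92 (limma adjusted p = 0.0151), and the call was kept in all 16, with values of 1.61 to 2.16 and adjusted p up to 0.0494. The *unc22*(RNAi) level of SMED30025064 was lower at day 12 than at day 9, by a log2 fold change of -1.22. The part of this in the difference between days was not tested.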

How the results depend on the processing

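The counts of calls depended on which libraries entered, above all on *unc22*(RNAi) replicate 1. Leaving out each of the 8 libraries in turn gave 2329 (without *unc22*(RNAi) replicate 4) to 6034 (without *unc22*(RNAi) replicate 1) calls, 1142 to 2280 higher and 1187 to 3754 lower, 943 to 1841 of at least 2-fold, 928 to 2095 higher and 1050 to 3423 lower without overlap, and 23 to 562 rises and 234 to 405 falls at least 2-fold beyond every control library. With library weights, which gave *unc22*(RNAi) library 1 the lowest weight (0.133), there were 6426 calls, 4021 of them lower. The 8 day 12 libraries alone gave 2269 calls, 1091 higher and 1178 lower. The cause was not tested.

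Against library 1 alone there were 1317 calls, 817 higher, 500 lower and 652 of at least 2-fold, with 298 rises beyond it, and no overlap in 500 falls. Library 2 alone gave 1089 higher, and 699 rises and 527 falls at least 2-fold beyond it. Library 3 alone gave 2413 of at least 2-fold, 1907 rises and 3157 falls without overlap, and 1429 and 984 beyond it. Library 4 alone gave 1860 of at least 2-fold, 1693 rises without overlap, and 1227 and 633 beyond it. With the day 9 controls 73 rises lay beyond every control, and with all 8 controls 3, with 715 calls of at least 2-fold. More or fewer controls change this rule by its construction.

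A mean of at least 5 RPKM, which tests fewer transcripts, gave 2251 calls, 933 higher, 608 of at least 2-fold, 590 rises and 889 falls without overlap, and 8 rises and 105 falls beyond every control. An adjusted p below 0.01 gave 1893 calls, 957 higher and 936 lower, with 880 falls without overlap. Without the length trend 977 were higher, 772 at least 2-fold and 604 rises without overlap. Rises beyond every control numbered 52 with a pseudocount of 0.1, 15 with a pseudocount of 1 and 60 by voom. Quantile normalisation gave 1655 higher and 1523 lower. Median deviation scaling and the fits that left out libraries of day 9, of whole worms or of *set1* were chosen after seeing the data.

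Same-numbered libraries did not deviate together (correlations of -0.35, 0.15, -0.30 and -0.20), so the numbers were not taken as pairs. A replicate block gave 3099 calls, 1479 higher and 1620 lower, and no library correlated best with that of its own number in the other group. The 236 strict falls were all called with each scaling, with the replicate block, the length trend removed and any control library left out, but 199 of them against library 1 alone. The 4 named transcripts kept their direction and call under every alternative in which they were tested. The strict falls and the named transcripts were chosen by the same day 12 values, for a wide distance between groups. That they stayed called thus describes this choice and is no independent support. SMED30025064 ranged from 0.82 to 2.97 (highest adjusted p 0.0248). At this depth 7 of the 236 falls had at most 3 reads after *mll1/2*(RNAi), so the size of these falls could not be measured.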
